A study of Homo sapiens with 9 samples.

Results

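The SR splicing factor genes described here are SRSF1, SRSF2, SRSF3, SRSF4, SRSF5, SRSF6, SRSF7, SRSF9, SRSF10 and SRSF11. They are 10 of the 22384 annotated genes with at least 1 read pair in the data. A read pair was counted for a gene when both of its ends lay on the strand of the gene and within 1 kb of its body in Gencode release 44. This counting rule used names and positions and no measured value, but the genes were chosen with earlier results of these data known. The cells were K562, an erythroleukaemia line from a patient with chronic myeloid leukaemia that carries the BCR-ABL1 fusion kinase. They had been exposed for 24 h to 1 μM imatinib, an inhibitor of that kinase, or to the solvent DMSO alone, and each condition had 2 biological replicates of 1 cell line. TIF-Seq2 joins the capped start and the poly(A) end of each full-length cDNA in a circle and sequences both, so that 1 read pair gives the transcription start site (TSS) and the poly(A) site (PAS) of 1 RNA molecule.

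SR proteins bind exonic enhancer sequences through RNA recognition motifs and recruit the spliceosome through a domain rich in arginine and serine, which kinases of the SRPK and CLK families phosphorylate. Several of them also act in mRNA export and in the choice of poly(A) sites. The genes are known for keeping their own levels in check through highly conserved "poison" exons and retained introns that send the transcript to nonsense-mediated decay. A read pair shows where such a transcript starts and ends and not which exons lie between.

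The 4 libraries held 2263121 to 5135829 read pairs, of which 9034 to 21183 belonged to the 10 genes. These were 0.449% and 0.412% of the pairs in the DMSO libraries and 0.293% and 0.399% in the imatinib libraries, so that imatinib replicate 1 stood lowest and imatinib replicate 2 lay just under the DMSO range. The erythroid and leukaemic marker genes of K562 were all detected (11 of 11), at a summed 6280 to 7583 CPM (read pairs in every 1000000) in DMSO and 20207 to 20472 after imatinib. Of the markers of other cell types, CD3E, MS4A1, CD14 and KRT5 had no read pair, and the summed T cell list, nearly all of it 1 gene, was at 58.6 to 74.2 CPM in DMSO and 3.56 to 5.09 after imatinib. The part of these shifts in the values of the SR genes was not tested. In bulk libraries of this kind, fewer cells that express a gene and less RNA per cell cannot be told apart.

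Ends on the 3′ side that are followed by 7 or more A in the next 10 nt of the genome can arise by priming inside an A stretch of the RNA. Such ends made up 2.48% to 5.21% of the read pairs of the SR genes per library, against 7.82% to 9.80% of all read pairs. They were counted in the gene totals and left out of the 3′ end classes, as given for each gene below.

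Of the 10 SR genes, 9 had a lower fitted level after imatinib than in DMSO and none passed the test (edgeR quasi-likelihood test, Benjamini-Hochberg adjusted p under 0.05). Over the 12135 genes tested, 14.8% were called in either direction and 6.15% were called lower. The log2 changes of the SR genes ran from -0.75 to 0.17 with a median of -0.40, while the median of all genes tested was 0.03 and 48.5% of them lay below 0. Without imatinib replicate 1, 5 of the 10 lay below 0 and their median was -0.08, with all genes at -0.01. Without imatinib replicate 2 these values were 9, -0.71 and 0.01. With either DMSO library left out 9 lay below 0. The normalised values of the 2 groups did not overlap for 3 of the 10 genes, SRSF1, SRSF9 and SRSF10, and this was so for 60.0% of all genes tested. At an unadjusted p under 0.05 there were 2 of the 10, SRSF9 and SRSF10, against 31.2% of all genes tested. Levels are given below in CPM. One pair stands for 1 molecule whatever its length, so no scaling for length was made. Whether long molecules were recovered as well as short ones was not tested, which bears on the shares of short and long ends below.

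SRSF10, which in its dephosphorylated form is known as a splicing repressor, had the lowest p of the 10 genes. It was at 411 and 467 CPM in the DMSO libraries and at 264 and 258 in the imatinib libraries. Both imatinib values lay below both DMSO values, and the difference between the groups was larger than the spread within either, with means of 439 ± 39.0 and 261 ± 3.94 (SD, n = 2). The log2 change was -0.75 (SE 0.24) with an edgeR adjusted p of 0.0707, and DESeq2, which called 10.7% of the genes it tested and 5.53% lower, called it lower. Without imatinib replicate 2 the edgeR test called 30.5% of all genes, of which those called lower were 14.0% of all genes, and SRSF10, SRSF1, SRSF2, SRSF3 and SRSF4 were among those called lower at log2 changes of -0.76, -1.001, -0.95, -0.99 and -1.07. Without imatinib replicate 1 the changes of these 5 genes were -0.75, -0.20, 0.03, -0.17 and 0.04, so that the value of SRSF10 did not depend on which imatinib library was kept and those of the other 4 did.

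SRSF9 was at 279 and 292 CPM in DMSO and at 211 and 166 after imatinib, and the groups did not overlap (log2 change -0.59, SE 0.26, edgeR adjusted p = 0.150). SRSF1, the founding member of the family, was at 347 and 274 in DMSO and at 158 and 268 after imatinib. The upper imatinib value thus nearly touched the lower DMSO value, and the log2 change was -0.55 (SE 0.31, edgeR adjusted p = 0.262). SRSF3, the smallest SR protein and an adaptor of mRNA export, had the most read pairs of the 10 genes, with 1761 and 1294 CPM in DMSO and 782 and 1342 after imatinib. Its groups overlapped (log2 change -0.52, SE 0.32, edgeR adjusted p = 0.289).

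The remaining genes overlapped between the groups as well. SRSF2, a marker of nuclear speckles that is recurrently mutated in myeloid neoplasms, was at 556 and 552 in DMSO and at 293 and 560 after imatinib. SRSF4 was at 87.5 and 114 in DMSO and at 49.1 and 103 after imatinib. SRSF7, which carries a zinc knuckle beside its RNA recognition motif, was at 417 and 371 and then at 253 and 391. For these 3 genes and for SRSF3 and SRSF6, imatinib replicate 2 lay within or above the DMSO range and imatinib replicate 1 alone was low. SRSF6 was at 264 and 212 in DMSO and at 175 and 250.3 after imatinib, and SRSF11 at 117 and 140.0 and then at 132 and 106. SRSF5 was the 1 gene with a fitted value above 0 (log2 change 0.17, SE 0.29), at 549 and 357 in DMSO and at 447 and 572 after imatinib. The plots of levels and of log2 changes show these values and the effect of leaving out each library.

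**Figure D1:**
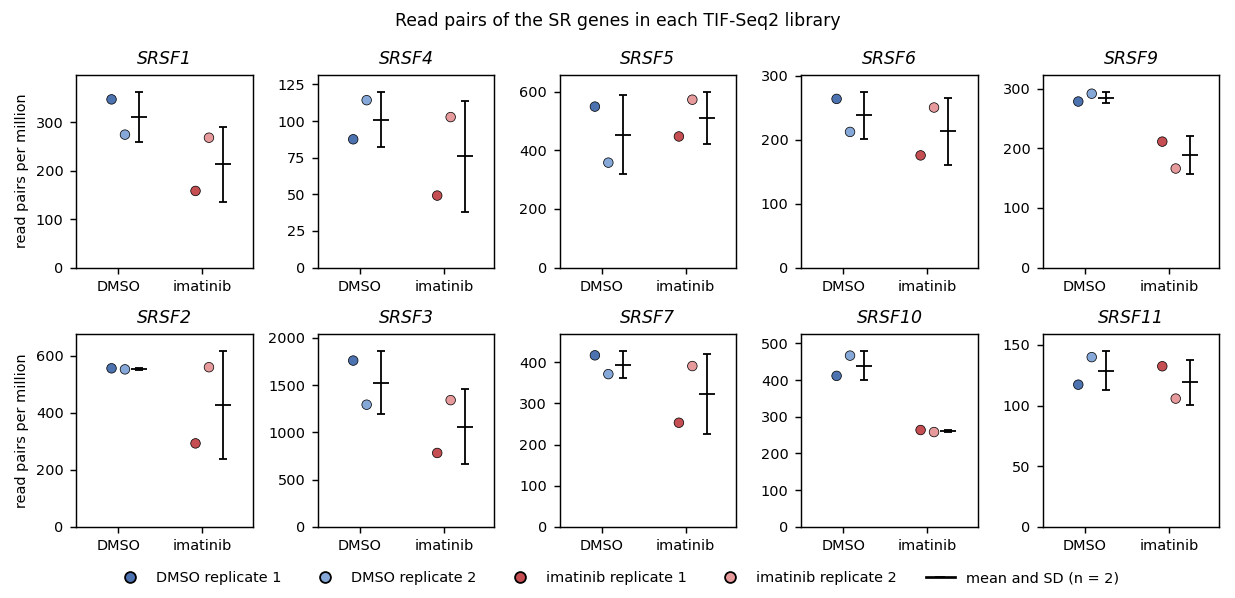
Each panel plots 1 SR gene on a linear axis from 0, in CPM of the TMM-normalised library, with a point for each of the 4 libraries and a bar for the mean and SD of each group (n = 2). The imatinib points of SRSF9 and SRSF10 lie clear below the DMSO points. In SRSF2, SRSF3, SRSF4, SRSF6 and SRSF7 imatinib replicate 1 alone lies below them.

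**Figure D2:**
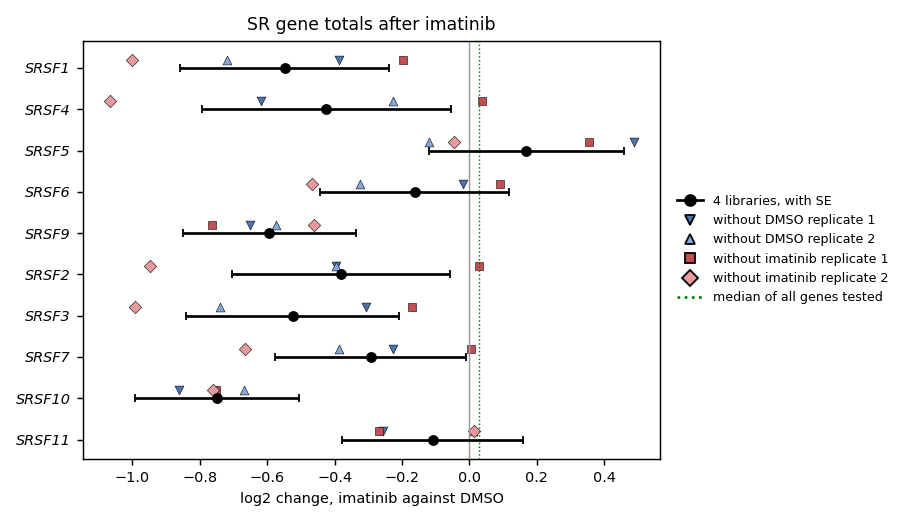
The x axis gives the log2 change of each SR gene, imatinib against DMSO, as fitted on 4 libraries (black, with SE) and with each library left out (coloured marks); the dotted line is the median of all genes tested at 0.03. The marks of SRSF10 stay close together between -0.86 and -0.67, and those of SRSF4 spread from -1.07 to 0.04.

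The SR genes were set beside lists of genes that act with them. Of 9 other SR and SR-like genes tested (10 listed), 7 SR protein kinases and import factors (7 listed), 15 factors of the 3′ splice site and of the U2 and U1 particles (17 listed) and 10 genes of nonsense-mediated decay (10 listed), none was called in the edgeR test, and the medians of their log2 changes were 0.01, 0.05, -0.26 and -0.12. Of 19 hnRNP and PTB genes, which often act against SR proteins at the same exons, 1 was called and the median was -0.37. Over all genes tested 14.8% were called, 6.15% lower, and the median was 0.03. That gene, HNRNPDL, was at 561 and 493 CPM in DMSO and at 195 and 299.6 after imatinib, a log2 change of -1.10 (SE 0.29, edgeR adjusted p = 0.0344).

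The 3′ ends of each gene were sorted by place. Ends before the last exon of the canonical transcript were called internal. Within the last exon, PAS clusters were built from ends at most 10 bp apart, and the most distal cluster with at least 5% of the last-exon read pairs was called the long end, with short ends before it. Shares below are percentages of the read pairs of a gene with fewer than 7 A downstream, with 95% Wilson intervals where a single library is discussed, which cover counting error only. The 10 genes had 53 PAS clusters with 10 or more read pairs, of which 29 held 5% or more of their gene and 8 were internal. In the 30 bases that end at the main position of each of these 29 clusters, 15 (51.7%) held the poly(A) signal AATAAA, 10 (34.5%) held ATTAAA without AATAAA and 4 (13.8%) held neither. Over all 30461 PAS clusters of the data the shares were 49.1%, 15.7% and 35.2% on the same window and the strand of the transcript. Unlike the 29, these had no limit on their share of a gene, so the shares are not of like sets. A match describes the letters and no test of the signal was made.

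**Figure D3:**
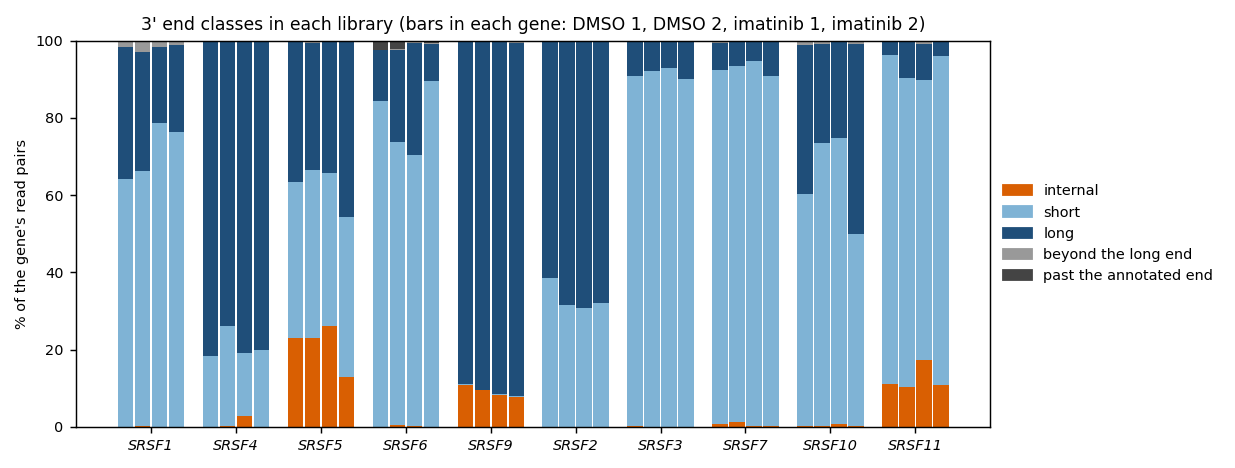
The stacked bars give the percentage of the read pairs of each gene in each 3′ end class, with 4 bars a gene for the 4 libraries and genes ordered by protein type (a pair of RNA recognition motifs from SRSF1 to SRSF9, a single motif from SRSF2 onwards). Internal ends (orange) are visible in SRSF5, SRSF9 and SRSF11, and the long class (dark blue) is the larger one in SRSF4, SRSF9 and SRSF2.

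**Figure D4:**
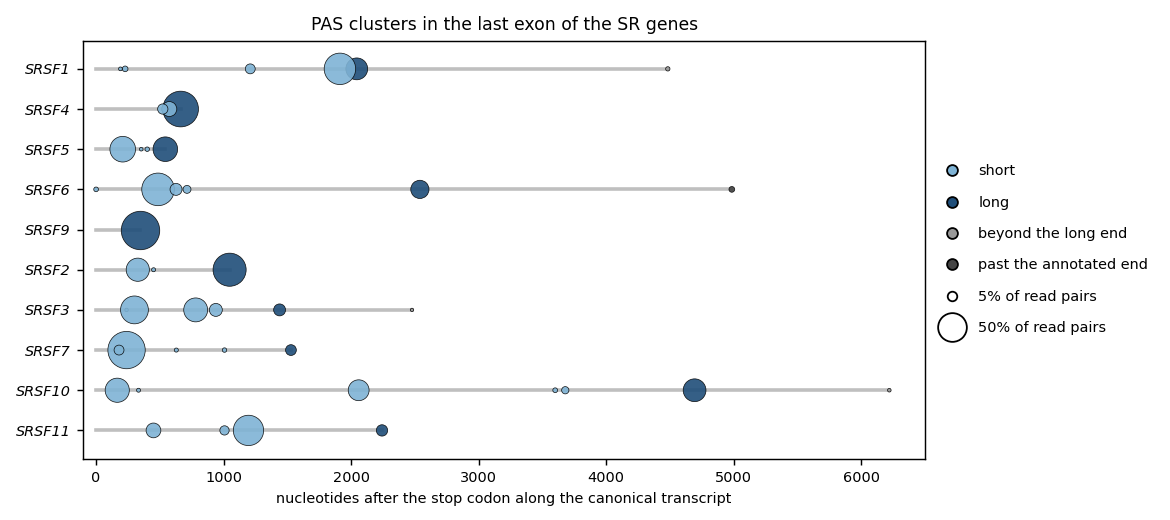
Each circle is a PAS cluster with 10 or more read pairs in the last exon or, for SRSF6 at 43466048, past the canonical end. It is placed by its distance in nucleotides after the stop codon along the canonical transcript. The area grows with its share of the read pairs of the gene. The long ends lie from 345 nt (SRSF9) to 4693 nt (SRSF10) after the stop codon.

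None of the 23 classes and none of the 37 PAS clusters of the SR genes that could be tested was called for a change of use within the gene (edgeR test of differential usage, adjusted p under 0.05). Over all genes 0.0336% of 8922 classes and 0.182% of 10446 clusters were called. At an unadjusted p under 0.05 there were 1 class and 1 cluster of the SR genes, against 5.62% of all classes and 5.3% of all clusters. By limma on the log2 ratio of a class or cluster to the rest of its gene, the counts at an unadjusted p under 0.05 were 3 and 4 and none passed adjustment. The shares that follow are thus a description of each gene, with the differences between libraries stated as such.

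SRSF1 (chr17:58000919-58007346, minus strand, hg38) ended well before the end of its canonical transcript, which reaches 4487 nt after the stop codon. Of its read pairs, 60.1% ended at 58003494, 1912 nt after the stop codon, and 28.6% at 58003362, which lies 132 nt further. The distal end of the pair is the long end by the rule used here. Other annotated transcripts of the gene end 1 nt from 58003494 and 2 nt from 58003362. A short end 1209 nt after the stop codon, at 58004197, held 5.42%. The sequences below are the 30 bases that end at each site, on the strand of the transcript, and the capitals mark the poly(A) signal where there is one.
SRSF1 short end, chr17:58003494-58003523: tttgaaaaAATAAAcattttttaaaaaact
SRSF1 long end, chr17:58003362-58003391: gtgttagcaaATTAAAagttcttaaaaggc

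The long end of SRSF1 took 34.2% (95% interval 31.6 to 37.0) and 30.8% (28.4 to 33.3) of the read pairs in the DMSO libraries and 19.7% (16.9 to 22.8) and 22.6% (19.4 to 26.2) in the imatinib libraries. It had 401 and 423 read pairs in DMSO and 135 and 129 after imatinib, whereas the short class had 751 and 909 and then 539 and 436. The groups did not overlap, which held for 43.0% of all classes tested. The mean share was 32.5% ± 2.42 in DMSO and 21.1% ± 2.06 after imatinib (SD, n = 2). The edgeR usage test did not call the long class (log2 change -0.44, SE 0.28, unadjusted p = 0.136). By limma on the log2 ratio, an alternative chosen after seeing the data, the change was -0.87 with an adjusted p of 0.392. All 3947 read pairs of SRSF1 also met the rule for an overlapping read-through gene in the annotation and were counted for both.

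SRSF4 (chr1:29147743-29181900, minus strand) ended mostly at its annotated 3′ end. The long end at 29147747, 663 nt after the stop codon, held 77.5% of the read pairs. The long share was 81.3% and 73.7% in DMSO and 80.8% and 80.1% after imatinib, and the groups overlapped. Of all read pairs of SRSF4, 15.8% had 7 or more A downstream and were left out of these shares. With such ends counted the long end held 65.3%.
SRSF4 long end, chr1:29147747-29147776: aaatttgAATAAAgactatttttgcttgac

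SRSF5 (chr14:69726900-69772005, plus strand) had the largest internal share of the 10 genes when A-rich ends were left out, and with such ends counted its share was 22.4% and that of SRSF11 28.2%. An end in intron 5 of the canonical transcript, at 69769508, held 21.0% of its read pairs, and 97.4% of the pairs with this end started within 100 bp of the main TSS of the gene. These molecules ran from the SRSF5 promoter to a point 2497 nt before the canonical end. The nearest annotated transcript end lay 86 nt away. Internal ends made up 22.0% of the read pairs of SRSF5 in all, a share higher than in 84.8% of the 7448 protein-coding genes with 100 or more read pairs, whose median was 1.63%. Of the other internal clusters, those at 69769355 and 69769404 in the same intron had 10 and 12 read pairs and that at 69771094 in exon 7 had 11. The intronic end carried ATTAAA and was followed by 1 A in the next 10 nt.
SRSF5 intronic end, chr14:69769479-69769508: tttaaccaaatATTAAAccctttatttgcc
SRSF5 short end, chr14:69771641-69771670: actaattgtATTAAAtgtcttttgataagc
SRSF5 long end, chr14:69771975-69772004: ttgttattgatAATAAAatattataaaact

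The intronic end of SRSF5 had 416 and 398 read pairs in DMSO and 491 and 166 after imatinib. Its share was 22.0% (95% interval 20.2 to 23.9) and 21.6% (19.8 to 23.5) in DMSO, 24.6% (22.7 to 26.5) in imatinib replicate 1 and 12.9% (11.2 to 14.9) in imatinib replicate 2. The 2 imatinib libraries thus lay on either side of the DMSO libraries and differed from each other by more than the counting error. The internal class had a log2 usage change of -0.20 (SE 0.28), which was -0.57 without imatinib replicate 1 and 0.13 without imatinib replicate 2. In the last exon, the short end 209 nt after the stop codon held 39.7% and the long end 543 nt after it held 36.5%. The short end stayed between 38.5% and 41.5% in the 4 libraries, and the long end took 36.4% and 33.0% in DMSO and 34.1% and 45.3% after imatinib.

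SRSF6 (chr20:43457893-43466046, plus strand) had its main end at 43461549, 486 nt after the stop codon, with 64.6% of the read pairs, a second short end at 43461690 with 8.19%, and a long end at 43463602, 2539 nt after the stop codon, with 19.8%. Annotated read-through transcripts cover the same pairs, and all 3372 read pairs of SRSF6 were also counted for that gene. The long end had 121 and 261 read pairs in DMSO and 231 and 53 after imatinib. Its share was 13.3% (95% interval 11.2 to 15.6) and 23.7% (21.3 to 26.3) in DMSO and 29.2% (26.1 to 32.4) and 9.41% (7.27 to 12.1) after imatinib. The libraries thus fell into a higher pair, DMSO replicate 2 and imatinib replicate 1, and a lower pair, which cuts across the treatment (log2 usage change -0.03, SE 0.30). DMSO replicate 2 and imatinib replicate 1 were the 2 libraries with the most read pairs. A weak end at 43466048, 1805 nt past the canonical end and 2 nt from that of another annotated protein-coding transcript of SRSF6, had 20 and 21 read pairs in DMSO. After imatinib this end had 3 and 4. It was the 1 cluster of the SR genes with an unadjusted p under 0.05 and is named for that, after its values were seen (log2 usage change -1.38, SE 0.55, edgeR adjusted p = 0.690).
SRSF6 main short end, chr20:43461520-43461549: tatgtaagatttaAATAAAagtttgctacc
SRSF6 long end, chr20:43463573-43463602: tttaaatctcAATAAAatacttactgaggg

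SRSF9 (chr12:120461672-120495946, minus strand) had a single main end, at 120461674 and 345 nt after the stop codon, with 90.1% of the read pairs and a share of 88.6% to 91.4% in the 4 libraries. Neither AATAAA nor ATTAAA stood in the 30 bases before it. The gene body in the annotation reaches 26.2 kb beyond the canonical start, and the non-coding gene NRAV overlaps that stretch on the same strand. All 346 read pairs that started there also ended there, 305 of them at 120491027 and 20 at 120491087, and 0 of 346 ended in the canonical SRSF9 body, which allows a share of up to 0.867%. Of the 358 pairs that counted as internal, 346 were of this kind. Among the 3459 pairs from the canonical body with fewer than 7 A downstream, 0.347% had an internal end.
SRSF9 long end, chr12:120461674-120461703: ctgtttagaaatatattttaaatgtttagt

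Without the pairs from the upstream stretch, SRSF9 was at 249 and 265 CPM in DMSO and at 194 and 154 after imatinib. The groups again did not overlap. The upstream pairs alone were at 30.0 and 26.5 CPM and then at 17.0 and 12.0.

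SRSF2 (chr17:76734115-76737333, minus strand) had 2 ends in use. The long end at 76734119, at the annotated end and 1047 nt after the stop codon, held 66.6% of the read pairs. A short end at 76734839, 327 nt after the stop codon, held 32.4%, and no annotated transcript end lay closer than 262 nt to it. The short end carried ATTAAA and the long end neither signal. Of the pairs with the short end, 94.9% started within 100 bp of the main TSS, and of those with the long end 88.9%.
SRSF2 short end, chr17:76734839-76734868: tttgtttgaaATTAAAcagattggtaacct
SRSF2 long end, chr17:76734119-76734148: taaaacattttcttggtgttagcttttctc

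The long share of SRSF2 was 61.6% and 68.3% in DMSO and 69.1% and 67.8% after imatinib. The groups overlapped, and DMSO replicate 1 was the library with the most short ends, at 37.5% against 30.3% to 31.6% in the other 3.

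SRSF3 (chr6:36594353-36605600, plus strand) had 4 ends with 5% or more of its read pairs, all within 1439 nt of the stop codon. The canonical transcript ends 3611 nt after the stop codon. The main end at 36602290, 301 nt after the stop codon, held 46.9% and the next, at 36602770 and 781 nt, held 34.5%. An end at 36602928 held 9.75% and the long end at 36603428 held 8.13%. Beyond it ended 45 read pairs, 16 of them at 1 cluster. The main end took 45.9% and 47.0% in DMSO and 55.5% and 38.8% after imatinib, and the second end took 34.8% and 33.7% and then 28.9% and 42.1%. The 2 DMSO libraries were alike and the imatinib libraries lay on opposite sides of them at both ends.
SRSF3 main short end, chr6:36602261-36602290: cacagactgatAATAAAcctctaaacctgc
SRSF3 second short end, chr6:36602741-36602770: gagaatccttgggATTAAAgttttggttac
SRSF3 long end, chr6:36603399-36603428: ttgtgcaattagATTAAAtcataatgcaac

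SRSF7 (chr2:38743599-38751494, minus strand) ended early. A short end at 38744894, 239 nt after the stop codon, held 85.0% of the read pairs, and one at 38744953 held 5.41%. The long end at 38743605, at the canonical end and 1528 nt after the stop codon, held 6.54%. An annotated protein-coding transcript of the gene ends 1 nt from 38744894. The long share was 6.98% and 6.11% in DMSO and 4.98% and 8.79% after imatinib. Internal ends held 0.714%, against 3.11% with A-rich ends counted, of which 85 pairs lay at 38746153 in exon 7. Without A-rich ends they had 10 and 23 read pairs in DMSO and 3 and 1 after imatinib, which was 0.727% (95% interval 0.396 to 1.33) and 1.24% (0.831 to 1.86) and then 0.272% (0.0925 to 0.796) and 0.117% (0.0207 to 0.661). The groups did not overlap, and this class had the lowest p of the SR gene classes (log2 usage change -1.62, SE 0.51, edgeR adjusted p = 0.413). With A-rich ends counted the log2 usage change was -0.79. With 37 read pairs in all, the class allows little precision.
SRSF7 main short end, chr2:38744894-38744923: ggcacatttaAATAAAatgtttctaactag
SRSF7 long end, chr2:38743605-38743634: tactcaacAATAAAtctgcagagattgaac

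SRSF10 (chr1:23964347-23980927, minus strand) spread its last-exon ends over the longest stretch of the 10 genes. Ends at 23970976, 23969083 and 23966449, which are 166, 2059 and 4693 nt after the stop codon, held 35.2%, 26.1% and 31.3% of the read pairs. The first end took 39.7% and 37.4% in DMSO and 27.7% and 28.7% after imatinib, with 544 and 867 read pairs and then 285 and 154. Its groups did not overlap, which held for 43.0% of all classes tested and was not counted over all clusters. The edgeR usage test did not call this first end (log2 usage change -0.32, SE 0.30, unadjusted p = 0.297). The second and the long end, with the most pairs beside it, overlapped between the groups.
SRSF10 first short end, chr1:23970976-23971005: ataATTAAAatgatatgctgttgagaagcc
SRSF10 second short end, chr1:23969083-23969112: aaacatgctatAATAAAaacaaaatgaagg
SRSF10 long end, chr1:23966449-23966478: atagcgAATAAAtaacttttatagtatcac

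The second end of SRSF10 took 12.7% (95% interval 11.0 to 14.6) and 29.6% (27.8 to 31.5) in DMSO and 41.1% (38.1 to 44.1) and 16.2% (13.4 to 19.6) after imatinib. As with the long end of SRSF6, DMSO replicate 2 and imatinib replicate 1 were the high libraries. This end is followed by 6 A in the next 10 nt, 1 below the limit used here, and 69.3% of its pairs started within 100 bp of the main TSS, against 90.5% at the first end and 85.9% at the long end. For the long end of SRSF6 this share was 65.5%, against 80.9% at its main end. The long end of SRSF10 took the reverse course, with 38.7% and 25.5% in DMSO and 24.9% and 49.4% after imatinib (log2 usage change 0.16, SE 0.27). The change was -0.04 without DMSO replicate 2 and -0.24 without imatinib replicate 2. The part of library depth in these values was not tested.

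**Figure D5:**
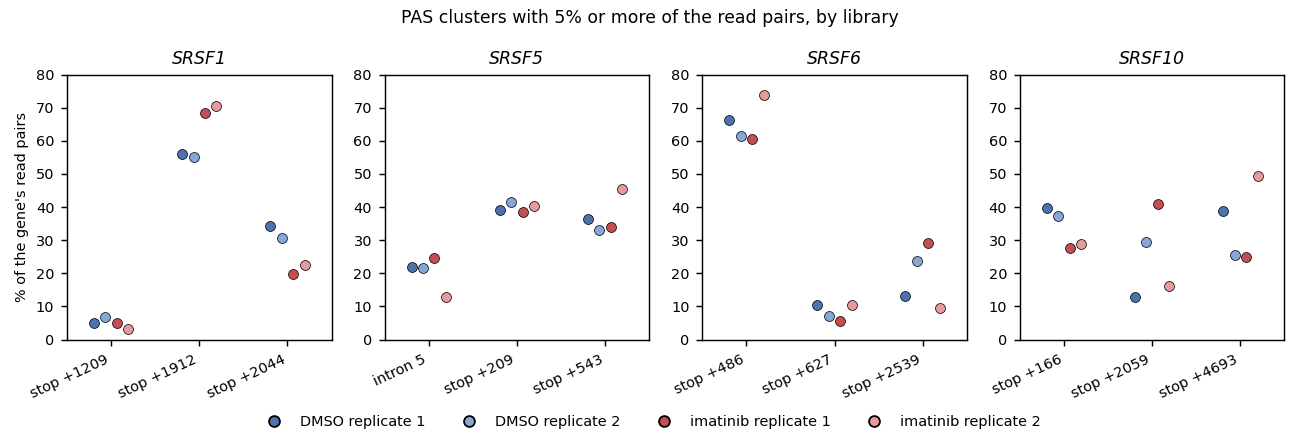
Each panel shows the PAS clusters with 5% or more of the read pairs of 1 gene, from the promoter-proximal end to the distal end, labelled by distance after the stop codon or by intron; the y axis is the percentage of the read pairs of the gene and each point is 1 library. In SRSF1 the imatinib points lie above DMSO at 1912 nt and below it at 2044 nt, whereas in SRSF6 at 2539 nt and SRSF10 at 2059 nt the high points are DMSO replicate 2 and imatinib replicate 1.

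SRSF10 also had an A-rich internal end, at 23978135 in intron 2 and 20 nt from the end of an annotated retained-intron transcript. It had 22 and 55 read pairs in DMSO and 118 and 18 after imatinib, high in imatinib replicate 1 alone, and with 9 A in the next 10 nt it was left out of the classes. With such ends counted, 5.01% of the read pairs of SRSF10 were internal, against 0.343% without them. The capitals are the 10 bases downstream of the end.
SRSF10 A-rich intronic end, chr1:23978125-23978154: aagagaagggagagtttgggAAAAGAAAAA

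SRSF11 (chr1:70205682-70253052, plus strand) was the gene most marked by A-rich ends. Of its 1971 read pairs, 45.0% had 7 or more A downstream, and the share was 40.1% and 46.6% in DMSO and 53.9% and 26.1% after imatinib. The most used A-rich end, at 70251610 in the last exon, had 47 and 144 read pairs in DMSO and 133 and 14 after imatinib, again higher in DMSO replicate 2 and imatinib replicate 1. An annotated protein-coding transcript ends 7 nt from it. Further A-rich ends lay in exons 7, 9 and 11.
SRSF11 A-rich end in the last exon, chr1:70251591-70251620: tcctgagtctatcttaaaggAAAAAAAGAA
SRSF11 A-rich end in exon 11, chr1:70250415-70250444: aaagagaacgatcaacaagcAAGAAGAAGA

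Among the 1084 read pairs of SRSF11 with fewer than 7 A downstream, the main end at 70252000, 1195 nt after the stop codon, held 55.8%. A short end at 70251255 held 12.7% and the long end at 70253047, at the canonical end, held 7.29%. The end at 70251255 had 25 and 76 read pairs in DMSO and 29 and 8 after imatinib (log2 usage change -0.67, SE 0.37). The long end had 9 and 37 and then 26 and 7. Internal ends held 12.4%, against 28.2% with A-rich ends counted, and the 2 internal clusters at 70237557 and 70217739 accounted for 26 and 14 of the 134 internal pairs that were not A-rich. The internal share was 11.1% and 10.3% in DMSO and 17.4% and 10.8% after imatinib.
SRSF11 main short end, chr1:70251971-70252000: caagactttgatAATAAAacccttaaactt
SRSF11 long end, chr1:70253018-70253047: tgatttaaaAATAAAagtggtttttgttag

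SRSF11 also had 2 separate main starts, and its remaining pairs started elsewhere. Its most used TSS, at 70205724, lay 15656 nt upstream of the canonical transcript start, and 45.8% of all its read pairs started within 100 bp of it. Another 29.3% started at the first exon of the canonical transcript. The upstream TSS took 47.0% and 42.9% of the pairs in DMSO and 46.1% and 52.1% after imatinib, and the canonical first exon took 29.8% and 33.0% and then 25.9% and 25.6%. Joining both ends of each molecule showed the same ends in use from both starts. The main end took 53.8% of the 489 pairs from the upstream TSS and 51.5% of the 301 pairs from the canonical first exon, the end at 70251255 took 11.2% and 14.0%, and the long end took 6.54% and 6.31%. The internal end at 70217739 lies before the canonical first exon and was joined to the upstream TSS in 13 of its 14 pairs. In the other 9 genes the most used TSS lay within 53 nt of the canonical start, and 71.0% to 93.8% of the pairs started within 100 bp of it.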

How the data were processed

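TIF-Seq2 was measured in 4 libraries of K562 cells, 2 with imatinib and 2 with DMSO, grouped by the sample labels. The deposited tables hold raw counts of read pairs for each combination of a start and an end position on hg38. To make them, the authors trimmed reads with cutadapt 1.16, aligned them with STAR 2.5.3a (versions as in the submitters' processing notes), kept unique pairs on 1 chromosome and removed duplicates by UMI, so that a count is a count of molecules as far as the UMIs resolve them. The counts carry no filter on internal priming. The targeted long-read models and the 3′T-fill samples were not used here.

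Gene counts were fitted by edgeR 4.0.16 (glmQLFit, glmQLFTest) with TMM factors on the deposited totals, after filterByExpr, over all genes, with the Benjamini-Hochberg adjustment. Use of 3′ end classes and of PAS clusters within genes was tested by diffSpliceDGE, whose log2 change is relative to the whole gene. PAS clusters rest on tags with at least 1 power-law normalised count in at least 2 libraries. DESeq2 1.42.0 and limma 3.58.1 were alternatives. On simulated data with a log2 change of 2, the tests called 85.9% of 199 changed genes (12062 tested), 32.1% of 196 changed classes (8961 tested) and 30.8% of 198 changed clusters (10470 tested). Of these, 117 classes and 122 clusters had a log2 usage change of at least 1, and 52.1% and 50% of them were called. The simulated dispersion was below the fitted common values of 0.056, 0.066 and 0.081. No SR gene total had a fitted change as large as the simulated one. The 95% Wilson interval of a share in 1 library spanned at most 11.7 percentage points for classes and 13.6 for clusters. All PAS clusters with at least 5% of a gene, internal clusters with at least 10 read pairs and up to 3 called genes per partner list were named by rule, except for ends of SRSF4 that are not reported here; the A-rich ends named were chosen after their values were seen. The partner lists were other SR and SR-like genes, SR protein kinases and import, hnRNP and PTB, 3′ splice site and U2/U1 factors and nonsense-mediated decay. The genes, lists and tests were chosen with earlier results of these data known. Sequences come from the hg38 genome.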

Additional observations from a re-analysis of the deposited data

How the results depend on the processing

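Of 128 gene-level values of the SR genes under other settings, 8 turned direction, all with 1 library left out, and 10 newly passed the test. The number of genes called, 1800, was 820 to 3955 with 1 library left out, 2731 with no filter on low counts and 1180 with a log2 change beyond 1.5. With 1 library left out the log2 changes ran from -0.27 to 0.014 for SRSF11, -0.12 to 0.49 for SRSF5, -1.07 to 0.037 for SRSF4, -0.67 to 0.0038 for SRSF7, -0.95 to 0.030 for SRSF2 and -0.47 to 0.090 for SRSF6. Genes with a class called, 3 of them, were 0 to 102 with 1 library left out, 11 with no filter, 5 when ends with 6 A were also left out and 0 by limma, and the 19 clusters called were 1 to 117 and, by limma, 0. The class changes ran from -0.67 to 0.46 for the long end of SRSF6, -0.24 to 0.44 for that of SRSF10 and -0.57 to 0.13 for internal ends of SRSF5. The internal share of the 10 genes together, 3.70%, was 5.11% with A-rich ends counted, and the long share, 29.95%, was 46.8% when a long end needed 10% of the last-exon pairs. At 10% the long ends of SRSF3, SRSF7 and SRSF11, with 8.13%, 6.54% and 7.29% of their gene, no longer met the rule. An end nearer the stop codon then counted as long, and the long share of SRSF3 became 34.5%. The cause of the other shifts was not tested. The replicate numbers were not treated as pairing the libraries, since the deviations of same-numbered libraries correlated at -0.236. With the replicate block 1148 genes, 0 genes with a class and 2 clusters were called. With the numbers crossed in the block, an alternative chosen after seeing the data as was limma, 3723 genes were called, among them 4 SR genes, SRSF1, SRSF3, SRSF9 and SRSF10, all lower. Imatinib replicate 2 had the fewest read pairs, and ends with few pairs, such as the internal ends of SRSF7, are the least precise.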
